A study of Rattus norvegicus with 6 samples.

Results

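SIN3A and SIN3B are the scaffold proteins of the SIN3 corepressor, a complex that DNA-binding factors bring to promoters, and the histone deacetylases are the enzymes that such complexes carry. Removal of acetyl groups from histone tails generally goes with less transcription of the gene nearby. The class I enzymes HDAC1 and HDAC2 work inside SIN3, NuRD and CoREST, and HDAC3 inside NCoR-SMRT. The class IIa enzymes HDAC4, HDAC5 and HDAC7 hold MEF2 factors in check and leave the nucleus when kinases, among them AMP-activated protein kinase (AMPK), phosphorylate them. SIRT1 is a deacetylase of another family that uses NAD as its cofactor and works closely with AMPK in metabolic tissues.

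Levels of the SIN3 and histone deacetylase genes were read from 6 Affymetrix rat arrays of NRK-52E, an established epithelial cell line from rat kidney tubules. A lentivirus delivered a short hairpin RNA (shRNA) against AMPKα2, a catalytic subunit of AMPK, to the cells of 3 arrays, and a control lentivirus was given to those of the other 3. Both groups had also been treated for 24 h with 10 ng/mL of TGF-β1, a cytokine that pushes epithelial cells into a mesenchymal state, and untreated cells are not part of the comparison. The labels call the arrays of a group biological replicates. The genes Sin3a, Sin3b, Sap30, Hdac1, Hdac2, Hdac3, Hdac4, Hdac5, Hdac7 and Sirt1 were chosen by family, and the family itself was selected on a value of this same contrast, the opposite changes of the Sin3b probe sets. Of these 10 genes, 9 had probe sets that the platform annotation pairs with a single gene, 14 probe sets in all out of 31042. Sirt1 had none and has no value here. The main value of a gene, here and for all 14217 genes, came from whichever of its probe sets had the highest 6-array mean. Because this contrast was used to choose the genes, their changes are given as a description, with no p-value. Where one of them is said to pass, it was called in the limma fit across the whole array, and that call is not evidence about the family.

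The arrays differed broadly. The SD over probe sets was 1.76 to 1.82 on the AMPKα2 shRNA arrays, against 2.17 to 2.19 on the control arrays, and the median level was 6.04 to 6.05 on the AMPKα2 shRNA arrays, against 5.82 to 5.83 on the control arrays. Probe sets at low control levels tended to be higher with the hairpin, and those at high levels lower. Each change of a SIN3 or deacetylase probe set is therefore given beside the median change around its level. That median covers all probe sets whose control level lay within 0.25 log2 units of that of the probe set. The change is also given after quantile normalization, which gives the arrays a common distribution. Cyclic loess, given as well, removes level-dependent differences between pairs of arrays. Prkaa2, which encodes AMPKα2, stood at 6.64, 6.76 and 6.49 on the AMPKα2 shRNA arrays, against 6.83, 6.79 and 6.89 on the control arrays, and its change of -0.21 (SE 0.09) did not pass (limma, adjusted p = 0.0552). A knockdown was not shown by this probe set, and the groups are called as the labels call them. Of the listed tubule epithelial markers, 3 of 11, the keratin gene Krt8, the renal transcription factor gene Pax8 and the water channel gene Aqp1, lay above the median level of the control arrays, while Krt18, Epcam and Cdh16 lay below it. As deposited 9 of the 11 rose, 1, Krt8, fell and 1 did not pass. Their median change was 0.50 beside a typical 0.57 around their levels. Quantile normalization and cyclic loess each left 4 that rose and 1 that fell. The summed antilog level of these 11 markers was 5172 to 5770 on the AMPKα2 shRNA arrays, against 5980 to 6278 on the control arrays. Most of that sum was Krt8, whose change was -0.25 as deposited and 0.10 after cyclic loess. The sum of the other 10 was 687.4 to 722.8 on the AMPKα2 shRNA arrays, against 357.8 to 374.1 on the control arrays.

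Sin3b carried the largest rise of the family and also a fall. Its main probe set, 1371521_at, stood at 9.90, 9.90 and 9.62 on the AMPKα2 shRNA arrays, against 7.71, 7.74 and 7.75 on the control arrays. The groups did not overlap, and the lowest AMPKα2 shRNA array lay well above the highest control array. The log2 change was 2.07 (SE 0.10), a level 4.20-fold that of the control arrays, where the median change of 1781 probe sets of its level was -0.63. Its rise was 2.64 with quantile-normalized arrays, 2.79 with cyclic loess and 1.85 with median centring, so it was upward in all 4 scalings.

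The other Sin3b probe set, 1388653_at, stood at 7.79, 7.87 and 7.78 on the AMPKα2 shRNA arrays, against 8.54, 8.64 and 8.51 on the control arrays. Every AMPKα2 shRNA array was thus the lower one, by -0.75 on average (SE 0.09). The median change of 1606 probe sets of its level was -0.82, a difference of 0.07 from the probe set's own change. After quantile normalization its change was -0.07 and after cyclic loess -0.10, and it passed in neither. The contrast between a rising and a falling Sin3b probe set was therefore present as deposited and after median centring (-0.97), whereas after quantile normalization and cyclic loess one probe set rose and the other had a change near 0. The mean of both Sin3b probe sets changed by 0.66. Which parts of the Sin3b transcript the probe sets read was not analysed here. Of the 4525 genes read by several probe sets, 20.5% held both a riser and a faller as deposited. The share was 18.7% on quantile-normalized arrays, 19.5% with cyclic loess and 17.5% with median centring.

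Sap30 encodes a small subunit that helps bind deacetylases to the SIN3 scaffold. It stood at 6.92, 6.81 and 7.02 on the AMPKα2 shRNA arrays, against 5.41, 5.35 and 5.09 on the control arrays. No AMPKα2 shRNA array came near the control range. The log2 change was 1.63 (SE 0.11), a 3.10-fold level, and 2651 probe sets of the same control level had a median change of 0.67. The rise of Sap30 was 1.61 with quantile-normalized arrays, 1.32 with cyclic loess and 1.41 with median centring. Sap30 and the main probe set of Sin3b were the only members that rose, and both encode parts of the SIN3 core.

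Sin3a, which encodes the paralogous scaffold, was lower on all of its probe sets. The main one, 1391498_at, stood at 6.58, 6.66 and 6.72 on the AMPKα2 shRNA arrays, against 7.59, 7.57 and 7.47 on the control arrays, a change of -0.89 (SE 0.09). The second, 1392269_at, stood at 5.00, 5.08 and 4.69 on the AMPKα2 shRNA arrays, against 6.18, 6.16 and 6.28 on the control arrays, a change of -1.28 (SE 0.11). The third, 1397105_at, stood at 4.50, 4.27 and 4.27 on the AMPKα2 shRNA arrays, against 4.68, 4.89 and 4.83 on the control arrays, a change of -0.46 (SE 0.10). In none of these 3 probe sets did the groups overlap, as in 84.2% of all probe sets. The lower probe sets moved against the run of their level, since probe sets around 1392269_at had a median change of 0.23 and those around 1397105_at of 0.69. Around the main probe set the median was -0.54. Quantile normalization gave changes of -0.59, -1.55 and -0.90 for the main probe set, the second and the third, and cyclic loess gave -0.63, -1.81 and -1.01. The mean of the Sin3a probe sets changed by -0.88.

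The stretch just upstream of the start of each gene, from the RefSeq promoter table of build GRCr8, is shown for the SIN3 core, because its members parted in direction. Each is 250 bases long and written 5′ to 3′ on the strand of the gene, with capitals for matches on either strand to 3 promoter motifs. The GC box was searched as GGGCGG, with overlapping copies counted, and the CCAAT box as its name reads. The E-box was searched as CACGTG, and no match to one motif overlapped a match to another in the 10 genes.
Sin3b, chr16:17194052-17194301, minus strand: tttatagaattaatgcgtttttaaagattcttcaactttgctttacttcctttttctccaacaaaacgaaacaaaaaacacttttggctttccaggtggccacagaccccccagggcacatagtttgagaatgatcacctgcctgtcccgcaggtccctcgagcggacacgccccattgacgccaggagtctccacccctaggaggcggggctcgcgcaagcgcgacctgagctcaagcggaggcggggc
Sap30, chr16:37758244-37758493, plus strand: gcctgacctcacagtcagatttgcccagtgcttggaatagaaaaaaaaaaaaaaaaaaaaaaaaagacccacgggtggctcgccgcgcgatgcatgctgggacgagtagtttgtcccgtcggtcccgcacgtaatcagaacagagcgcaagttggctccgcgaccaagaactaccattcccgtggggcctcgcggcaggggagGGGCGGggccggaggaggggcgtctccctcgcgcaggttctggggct
Sin3a, chr8:66381533-66381782, plus strand: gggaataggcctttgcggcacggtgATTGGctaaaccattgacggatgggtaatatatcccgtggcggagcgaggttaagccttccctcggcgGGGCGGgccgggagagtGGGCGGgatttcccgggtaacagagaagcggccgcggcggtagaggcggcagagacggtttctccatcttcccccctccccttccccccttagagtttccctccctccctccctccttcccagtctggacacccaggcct
The Sin3b stretch held none of these letters, that of Sap30 held 1 GC box, and that of Sin3a held 2 GC boxes and 1 CCAAT box. Over all 10 genes, Sirt1 included, 8 held a GC box, against 30.5% of 33469 stretches of the same length, 4 held a CCAAT box, against 34.0%, and 2, those of Hdac5 and Sirt1, held an E-box, against 5.6%. Of the other 7 genes, Hdac7 held none of the 3 motifs, as Sin3b did, and Hdac7 fell while the main probe set of Sin3b rose. GC content was 53.2% for Sin3b, the lowest of the 10, 59.2% for Sap30 and 63.6% for Sin3a, against a median of 51.2% over all stretches. A match to these letters is a description of the sequence and no evidence of binding.

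**Figure D1:**
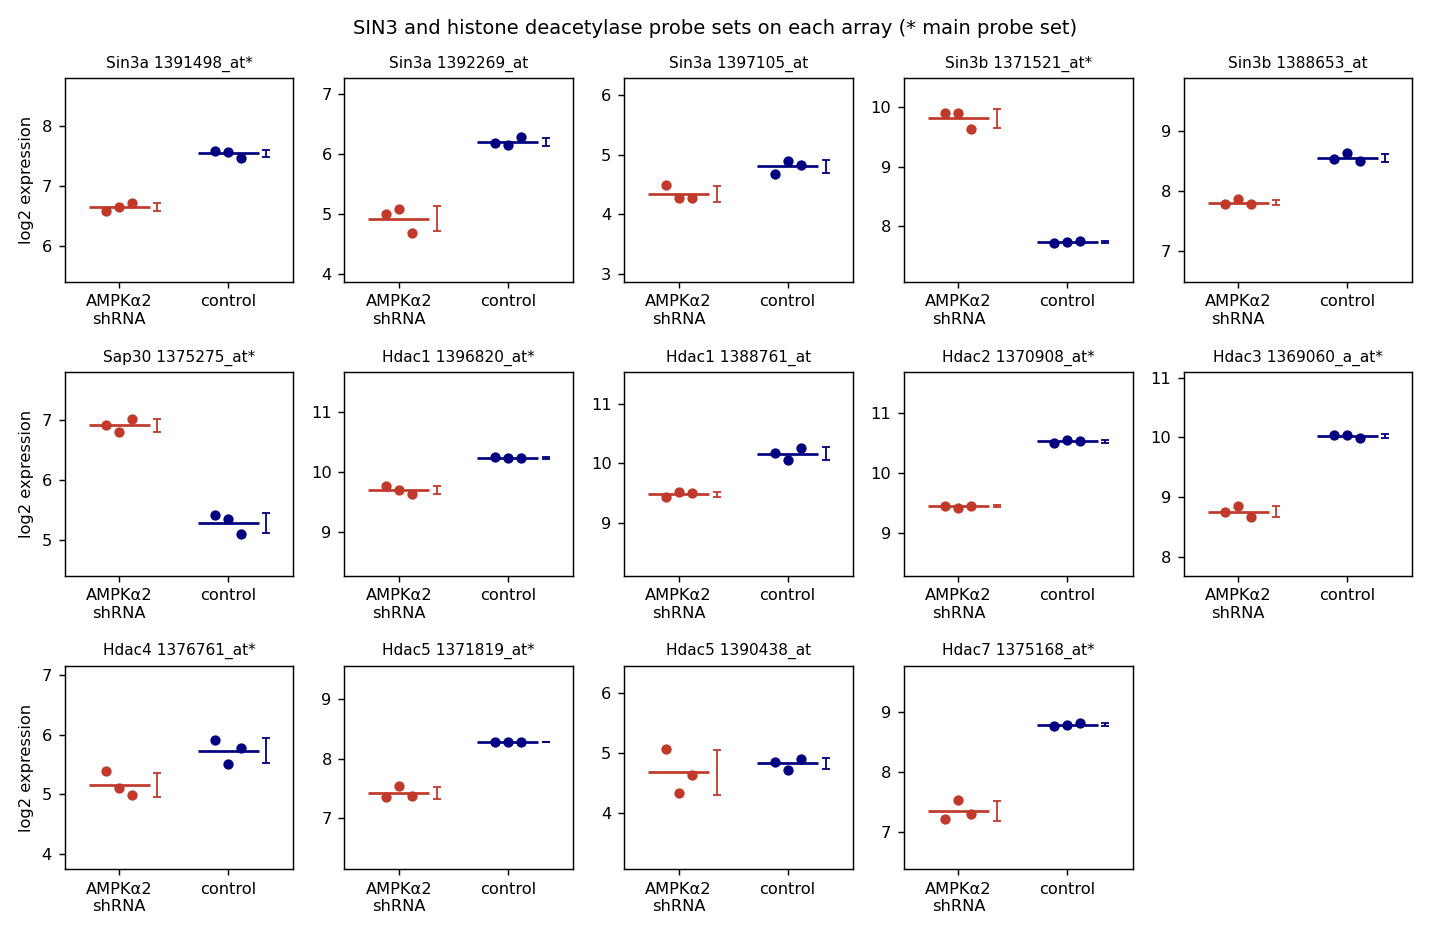
Log2 expression (vertical axis) of each of the 14 probe sets on the 3 AMPKα2 shRNA arrays (red, left) and 3 control arrays (blue, right), with the group mean as a line and the SD as a bar. Every panel spans the same range, and only Sin3b 1371521_at and Sap30 are higher on the AMPKα2 shRNA arrays, while Hdac5 1390438_at is the panel where the groups overlap.

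The class I deacetylase genes were lower as deposited, but to different degrees once the arrays were scaled. Hdac1, read by 2 probe sets, stood on its main one, 1396820_at, at 9.77, 9.70 and 9.64 on the AMPKα2 shRNA arrays, against 10.25, 10.23 and 10.23 on the control arrays. The change was -0.53 (SE 0.08), and the second probe set, 1388761_at, had -0.68 (SE 0.09), with a mean of 9.48 on the AMPKα2 shRNA arrays, against 10.16 on the control arrays. These were smaller falls than the medians of -0.91 among probe sets around either of them. After quantile normalization the Hdac1 changes were 0.16 and 0.025, and after cyclic loess 0.13 and -0.0009, and none of these 4 values passed. No direction can be given for Hdac1 across scalings.

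Hdac2 encodes the close paralog of HDAC1. It stood at 9.45, 9.42 and 9.46 on the AMPKα2 shRNA arrays, against 10.50, 10.56 and 10.53 on the control arrays. The replicates were tight, with an SD of 0.02 for the AMPKα2 shRNA arrays and 0.03 for the control arrays, beside a change of -1.09 (SE 0.08). The median around its level was -0.89, and the change was -0.44 with quantile normalization and -0.43 with cyclic loess. Hdac3, the catalytic subunit of NCoR-SMRT, stood at 8.75, 8.85 and 8.67 on the AMPKα2 shRNA arrays, against 10.03, 10.05 and 9.98 on the control arrays. Its change of -1.27 (SE 0.09) was the largest fall among the class I genes and compares with a median of -0.95 at its level. After quantile normalization it was -0.51 and after cyclic loess -0.55.

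The class IIa genes all fell on their main probe sets. Hdac7 stood at 7.22, 7.54 and 7.31 on the AMPKα2 shRNA arrays, against 8.77, 8.79 and 8.82 on the control arrays. With a change of -1.43 (SE 0.10), its level was 0.370-fold that of the control arrays, the largest fall among the 9 main probe sets as deposited. The median around its level was -0.92, and the change was -0.81 after both quantile normalization and cyclic loess.

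Hdac4 was read at a low level, 5.39, 5.10 and 4.99 on the AMPKα2 shRNA arrays, against 5.92, 5.51 and 5.78 on the control arrays. The gap between its groups was small, with the highest AMPKα2 shRNA array at 5.39 and the lowest control array at 5.51, and the change was -0.58 (SE 0.13). Probe sets around its level mostly moved up, with a median of 0.53, and the change of Hdac4 was -0.92 with quantile normalization and -1.14 with cyclic loess. Among the 9 main probe sets these were the largest falls in both scalings. Hdac5 stood on its main probe set, 1371819_at, at 7.37, 7.53 and 7.37 on the AMPKα2 shRNA arrays, against 8.27 on each control array. The control values were nearly identical, with an SD of 0.00019, and the change was -0.85 (SE 0.09), beside a median of -0.72 around its level. It was -0.25 with quantile normalization and -0.28 with cyclic loess. The other Hdac5 probe set, 1390438_at, stood at 5.08, 4.33 and 4.64 on the AMPKα2 shRNA arrays, against 4.86, 4.73 and 4.91 on the control arrays. Here the groups overlapped, the change was -0.15 (SE 0.16) beside a median of 0.69 around its level, and it was -0.60 with quantile normalization and -0.73 with cyclic loess. AMPKα2 shRNA replicate 1 was its highest array, and the change was -0.35 without that replicate, where it passed, and 0.03 without AMPKα2 shRNA replicate 2, where it did not.

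**Figure D2:**
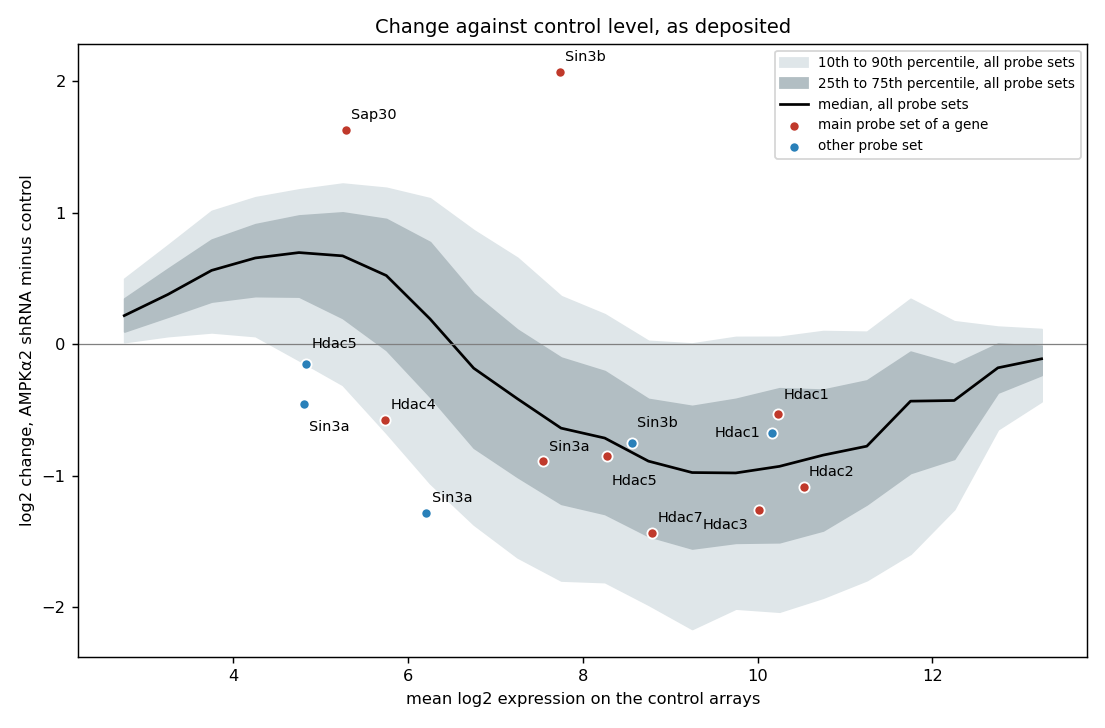
Log2 change, AMPKα2 shRNA minus control (vertical axis), against the mean log2 level on the control arrays (horizontal axis) for the 14 probe sets, over the median and percentile bands of all 31042 probe sets in bins of 0.5 log2 units. Sin3b and Sap30 lie above the bands, Sin3a 1392269_at and 1397105_at lie below the lower band edge, and the second Sin3b probe set lies close to the median line.

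Counted over genes, all 9 measured members passed the limma test, 2 higher and 7 lower, where 85.1% of all genes passed, 43.6% higher and 41.5% lower. Groups did not overlap in 9 of 9, against 87.1% of all genes. The share that passed was near that of the whole array, while the split between directions leaned further towards lower than that of all genes. The contrast was used in the choice, so nothing is read from either. The median change of the 9 was -0.85, against 0.05 over all genes, at a median control level of 8.27 against 6.99. Around the levels of the 9 main probe sets the typical median change was -0.72. In all 4 scalings 8 of the 9 passed in 1 direction, 2 higher and 6 lower, where 52.0% of all genes did, and Hdac1 was the exception. Over the 14 probe sets, 2 were higher, 11 were lower and 1 did not pass as deposited, where 81.9% of all probe sets passed, 47.8% higher and 34.1% lower. Quantile normalization and cyclic loess each left 2 higher and 9 lower, and 3 did not pass. Of all probe sets 37.0% were higher and 29.6% lower after quantile normalization, and 33.0% higher and 33.1% lower after cyclic loess. Groups did not overlap in 13 of the 14, against 84.2% of all probe sets, and 10 passed in 1 direction in all 4 scalings, against 47.9%.

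**Figure D3:**
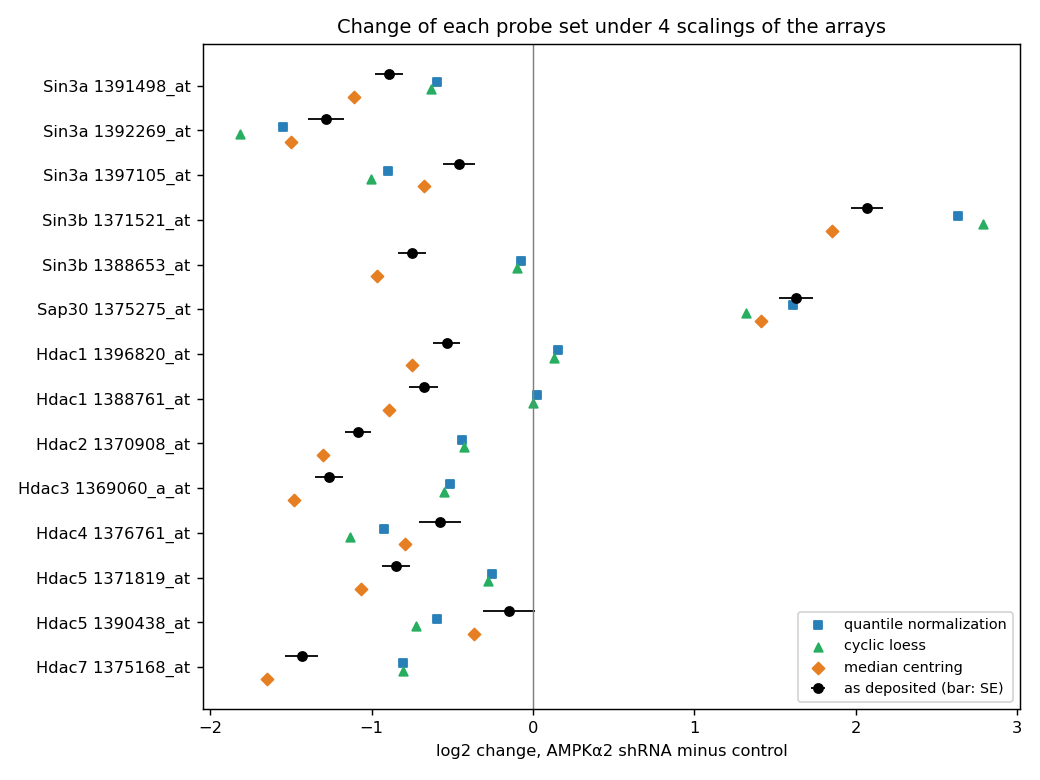
Log2 change of each probe set, AMPKα2 shRNA minus control (horizontal axis), as deposited with its SE and after 3 other scalings of the arrays. The values of Sin3b 1371521_at and Sap30 stay above 0 and those of Sin3a, Hdac2, Hdac3, Hdac4, Hdac5 and Hdac7 stay below 0 in every scaling, while Hdac1 sits at or just above 0 after quantile normalization and cyclic loess.

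The genes whose profile over the 6 arrays was nearest to the main Sin3b probe set, after each profile was centred on its mean, were Ankrd1, Ccdc28a and Get1. Ankrd1, which encodes a nuclear ankyrin repeat protein, lay at a root mean square distance of 0.04 log2 units, with a change of 2.11. Ccdc28a lay at 0.09 with a change of 1.94, and Get1 at 0.10 with a change of 2.15. With 2 groups of 3 arrays, such nearness mostly restates a similar change.

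The genes around the members were read from 12 lists of complexes, recruiting factors, kinases and opposing enzymes. Of 121 measured, 31 rose (25.6%, against 43.6% of all genes) and 75 fell (62.0%, against 41.5%). The other 15 did not pass, and the median change was -0.63. These genes sat at a median control level of 8.30, the typical median change around their levels was -0.71, and 65 of the 121 lay below the median of their own level. Quantile normalization gave 42 that rose and 59 that fell (median -0.18), and cyclic loess gave 40 and 60 (median -0.23). Of all genes 43.8% rose and 28.9% fell after quantile normalization, and 40.2% rose and 31.5% fell after cyclic loess. In all 4 scalings 19 of the related genes rose and 56 fell, against 25.5% and 26.4% of all genes.

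Of 16 other subunits and partners of SIN3 that were measured, 10 fell, 2 rose and 4 did not pass as deposited. Quantile normalization and cyclic loess each gave 9 that fell and 6 that rose. The median change was -0.87 beside a typical -0.75 around their levels. Sinhcaf, which encodes a SIN3-associated subunit, fell by 1.99 (SE 0.08, limma, adjusted p = 9.23e-09), with levels of 7.22, 7.33 and 7.31 on the AMPKα2 shRNA arrays, against 9.27, 9.21 and 9.36 on the control arrays. Ogt, which encodes the O-GlcNAc transferase that binds SIN3A, fell by 1.59 (SE 0.08, limma, adjusted p = 3.14e-08). These falls were -1.37 and -0.86 after quantile normalization. Tet1, a DNA demethylase gene, rose by 0.45 as deposited and had 0.09 after quantile normalization.

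Suds3, a gene for another structural subunit of SIN3, repeated the split seen in Sin3b. Its main probe set stood at 9.16, 9.23 and 9.18 on the AMPKα2 shRNA arrays, against 8.48, 8.45 and 8.43 on the control arrays, and rose by 0.74 (SE 0.08, limma, adjusted p = 5.57e-06). The probe set 1373954_at stood at 7.16, 6.77 and 7.04 on the AMPKα2 shRNA arrays, against 8.85, 8.87 and 8.84 on the control arrays, and fell by 1.87 (SE 0.11, limma over all probe sets, adjusted p = 7.23e-08). The remaining probe set had -0.04 and did not pass. Unlike that of Sin3b, this split was also called after quantile normalization, at 1.44 and -1.32, and after cyclic loess, at 1.46 and -1.27. The mean of the Suds3 probe sets changed by -0.39. Among the 63 listed genes read by several probe sets, 24 (38.1%) held both a riser and a faller as deposited. Over all such genes the share was 20.5%. The means were 2.62 and 2.46 probe sets per gene. For the listed genes this share was not counted in the other scalings. It was not matched for level either, and the median control level was 8.30 for all 121 related genes, against 6.99 over all genes.

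In the other deacetylase complexes more genes fell than rose as deposited. Of 11 NuRD genes 0 rose, 9 fell and 2 did not pass as deposited, on their main probe sets. After quantile normalization and after cyclic loess 3 rose and 7 fell. The median change was -0.99 beside a typical -0.83 around their levels. Gatad2a, a zinc finger subunit of NuRD, fell by 1.34 (SE 0.08, limma, adjusted p = 1.39e-07), and Mta1, which docks HDAC1 and HDAC2 in NuRD, fell by 1.58 (SE 0.11, limma, adjusted p = 2.67e-07). The other Mta1 probe set rose by 0.41 as deposited and had -0.05 after quantile normalization. Of 9 CoREST genes 2 rose, 5 fell and 2 did not pass as deposited, and 4 rose and 4 fell in each of these scalings. Kdm1a, the histone demethylase of that complex, fell by 1.36 (SE 0.08), while the scaffold genes Rcor2 and Rcor3 rose by 0.70 (SE 0.10) and 0.55 (SE 0.10), with a largest adjusted p among the 3 of 0.000267 (limma). Of 5 NCoR-SMRT genes 2 rose and 3 fell as deposited, and 2 rose and 2 fell in each of these scalings. Tbl1x and Gps2, subunits of that complex, fell by 1.18 (SE 0.08) and 1.27 (SE 0.14). Zbtb33, which encodes a factor that recruits the complex, rose by 0.88 (SE 0.12) from a control level of 4.15. The median around the level of Zbtb33 was 0.64, and after cyclic loess its rise was 0.33. Ncor1, the scaffold of NCoR-SMRT, had -0.64 as deposited and 0.13 after quantile normalization. Tbl1xr1 rose by 0.25 (limma, adjusted p = 0.0297), which did not pass after median centring or without any one of 5 of the 6 arrays, AMPKα2 shRNA replicate 3 being the exception. Of 3 MiDAC genes 2 fell and 1 did not pass. Dnttip1, whose protein binds HDAC1 and HDAC2, fell by 0.94 (SE 0.11) on its main probe set and by 1.28 on another. The remaining Dnttip1 probe set rose by 0.61 (SE 0.11) as deposited and had 0.12 after cyclic loess, where it did not pass.

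Deacetylase genes outside the family described were split as deposited. Hdac8, of class I, fell by 0.93 (SE 0.11, limma, adjusted p = 1.03e-05), with -1.14 with quantile normalization and -1.33 with cyclic loess. Hdac6, a mainly cytoplasmic enzyme, had -0.45 as deposited and 0.23 after quantile normalization, so it had no single direction. Hdac11 rose by 0.88 (SE 0.13) as deposited, beside a median of 0.69 around its level. After cyclic loess Hdac11 had 0.28 and did not pass. Hdac10 did not pass at -0.09 as deposited. Of these 4 genes 1 rose and 1 fell after quantile normalization, and 0 rose and 1 fell after cyclic loess. Of 6 other sirtuin genes 2 rose, 3 fell and 1 did not pass as deposited, and 2 rose and 2 fell after quantile normalization and after cyclic loess. Sirt5, which encodes a mitochondrial desuccinylase, fell by 1.59 (SE 0.09, limma, adjusted p = 6.98e-08), with -0.92 after quantile normalization, and Sirt3, a mitochondrial deacetylase gene, fell by 0.38 (SE 0.09). Sirt7, a nucleolar member, rose by 0.34 (SE 0.11, limma, adjusted p = 0.0133), and its rise did not pass after median centring (0.12) or without AMPKα2 shRNA replicate 1 (0.29). Of 11 genes that act on SIRT1 or are acted on by it, 5 rose, 5 fell and 1 did not pass as deposited, and 6 rose and 3 fell in each of these scalings. Nampt, which makes the NAD precursor that SIRT1 depends on, fell by 1.59 (SE 0.08, limma, adjusted p = 3.35e-08), and Parp1, a nuclear NAD consumer, fell by 1.51 (SE 0.09). Ppargc1a, another of the 11 genes, rose by 1.55 (SE 0.10) and Nmnat2, which encodes an NAD-making enzyme, by 0.95 (SE 0.10). The medians around their levels were 0.61 and 0.69, and after cyclic loess the rises were 0.97 and 0.46. The other Ppargc1a probe sets had 0.23 and 0.42.

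The genes that bring class IIa enzymes under control moved in both directions. Of 21 kinases and 14-3-3 proteins, which hold phosphorylated class IIa enzymes in the cytoplasm, 8 rose and 13 fell as deposited. Their median change was -1.10 beside a typical -0.71 around their levels. After quantile normalization 8 rose and 12 fell, and after cyclic loess 7 rose and 11 fell. Prkd3, which encodes a protein kinase D, stood at 7.08, 6.96 and 6.56 on the AMPKα2 shRNA arrays, against 9.61, 9.58 and 9.59 on the control arrays, and fell by 2.73 (SE 0.12, limma, adjusted p = 1.53e-08). The mean over its probe sets was -1.53. Ywhae, a 14-3-3 gene, fell by 1.89 (SE 0.08), while Sfn, another 14-3-3 gene, rose by 1.53 (SE 0.09). The kinase gene Camk4 rose by 1.23 (SE 0.10). The medians around the levels of Sfn and Camk4 were -0.14 and 0.69. After cyclic loess their rises were 1.96 and 0.63. The MEF2 genes, whose proteins class IIa enzymes repress, were split as well. Mef2d rose by 1.12 (SE 0.08) and Mef2b by 1.01 (SE 0.09), while Mef2c fell by 1.65 (SE 0.20), with a largest adjusted p among the 3 of 1.44e-05 (limma), and Mef2a had -0.96 as deposited and -0.21 after quantile normalization. The other Mef2d probe set had -0.19. Around the levels of the main Mef2d probe set and of Mef2b the medians were -0.44 and 0.53. After cyclic loess these 2 rises were 1.69 and 0.78.

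Of 18 genes for factors that recruit SIN3 or belong to the MAX network, 9 fell, 6 rose and 3 did not pass as deposited. The median change was -0.28 beside a typical -0.22 around their levels. Quantile normalization gave 6 that fell and 6 that rose, and cyclic loess 7 and 6. Klf10, a TGF-β-induced repressor gene, fell by 1.14 (SE 0.11, limma, adjusted p = 3.36e-06), and Mlx, a partner in the MAX network, fell by 0.85 (SE 0.08). Mlxip, another gene of that network, rose by 1.50 (SE 0.09, limma, adjusted p = 8.02e-08). Klf11, a relative of Klf10, rose by 0.93 (SE 0.09) on its main probe set, and the mean over its probe sets of 0.06 did not pass.

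Genes of the enzymes that oppose the deacetylases were lower on their main probe sets with few exceptions. Of 13 measured histone acetyltransferase genes 1 rose and 12 fell as deposited, with a median change of -1.50 beside a typical -0.89 around their levels, and 10 of the 13 lay below the median of their own level. Quantile normalization and cyclic loess each left 10 that fell and 2 that rose, with medians of -0.93 and -0.91. Kat2b, which encodes the acetyltransferase PCAF, stood at 6.64, 6.75 and 6.65 on the AMPKα2 shRNA arrays, against 9.27, 9.14 and 9.26 on the control arrays, and fell by 2.54 (SE 0.08, limma, adjusted p = 2.55e-09). Its other probe set had -0.49. Clock, a circadian factor with reported acetyltransferase activity, fell by 2.49 (SE 0.13), while 1 of its 4 probe sets rose by 1.03. The highest other probe sets of Ncoa1, Kat6b and Ep300 had 0.94, 0.47 and 0.18. The means over the probe sets of these genes were -0.80, -0.35 and -0.45, and each passed as lower. Ncoa3, a nuclear receptor coactivator gene, rose by 1.16 (SE 0.10, limma, adjusted p = 1.14e-06), and its other probe set had -0.04. Levels on its main probe set were 7.80, 7.75 and 7.95 on the AMPKα2 shRNA arrays, against 6.83, 6.57 and 6.61 on the control arrays.

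**Figure D4:**
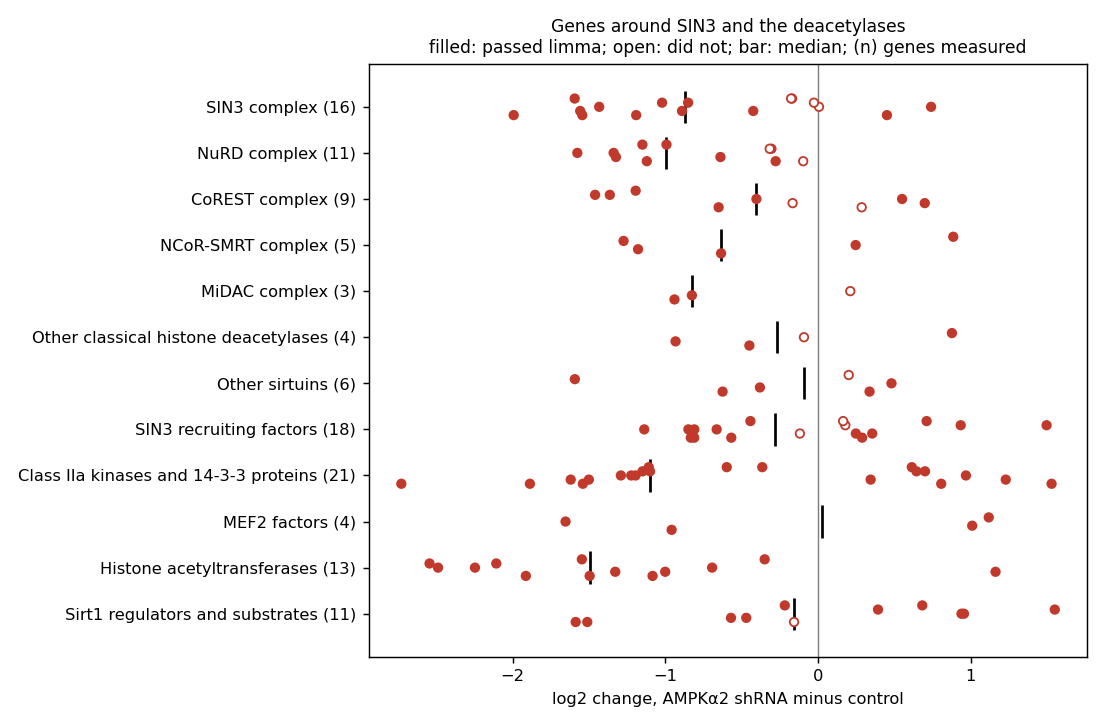
Log2 change, AMPKα2 shRNA minus control (horizontal axis), of each measured gene in the 12 lists around SIN3 and the deacetylases, filled where it passed the limma test and open where it did not, with the list's median as a bar. The acetyltransferase list has the lowest median, -1.50, and the MEF2 list, at 0.03, the highest.

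Markers of other cell types were mostly higher with the hairpin as deposited, from low control levels. All 5 measured leukocyte markers and all 6 fibroblast and pericyte markers rose, as did 4 of 5 endothelial markers. None of these 16 had a control mean above the median level of the control arrays. On the AMPKα2 shRNA arrays the means of Pdgfrb (6.72), Cd68 (6.51) and Flt1 (6.36) lay above the medians of those arrays, and the others did not. The summed antilog level of the leukocyte markers was 254.5 to 281.2 on the AMPKα2 shRNA arrays, against 138.3 to 141.3 on the control arrays, and that of the fibroblast and pericyte markers was 281.7 to 320.4 on the AMPKα2 shRNA arrays, against 151.8 to 155.2 on the control arrays. For the endothelial markers it was 186.4 to 225.1 on the AMPKα2 shRNA arrays, against 120.1 to 142.8 on the control arrays. The median changes of the leukocyte, fibroblast and endothelial lists were 0.94, 0.97 and 0.77, where the typical medians around their levels were 0.64, 0.63 and 0.60. After quantile normalization 5 leukocyte, 6 fibroblast and pericyte and 3 endothelial markers rose, and after cyclic loess 5, 5 and 3. Of 4 podocyte markers 2 rose, 1 fell and 1 did not pass as deposited, and 1 rose and 1 fell in each of these scalings. The part of these cell types in the changes of the SIN3 and deacetylase genes was not tested.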

How the data were processed

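Log2 expression values of 31099 probe sets on 6 arrays were used as deposited by the authors; per the labels' protocols they come from Trizol-extracted total RNA and biotin-labelled cRNA. Background correction, summary and normalization are not given in the sources used here, and signal over background was not used. After 57 array controls were left out, 20826 probe sets were paired with 1 gene, 436 with several and 9780 with none. RefSeq names (GRCr8) matched 20758 by Entrez identifier and changed 0 symbols. The number of arrays limits the precision.

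The test was limma's (version 3.58.1, R 4.3.3; lmFit, eBayes, 2-sided, Benjamini-Hochberg, threshold 0.05), with no covariate, over 14217 genes and, for single probe sets, over 31042 probe sets. SEs of the SIN3 and deacetylase probe sets come from the second fit, and those of other genes from the first unless stated. Changes are AMPKα2 shRNA minus control. The members and lists were chosen with earlier results of these data known. Named from each list were up to 2 rising and 2 falling genes of largest change that kept their call after quantile normalization and cyclic loess (3 iterations), and any gene of a list of 5 or fewer. Tet1, the other probe sets given for related genes, and genes named only for their other or averaged probe sets were singled out after their values were seen. In arrays simulated over 31042 probe sets, 100 were changed 2-fold and 100 by 0.5 log2 units, with no other difference between groups. The fit recovered 87% and 32% of these, and called 1 unchanged probe set. In the data 81.9% of probe sets passed and the array distributions differed, so these rates do not describe this comparison. For 1 value, exact permutation of 3 arrays against 3 cannot go below p = 0.1. Same-numbered replicates had correlations of deviations of -0.02, 0.01 and -0.10, so the numbers were not taken to pair the arrays.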

Additional observations from a re-analysis of the deposited data

How the results depend on the processing

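Alternatives were quantile normalization, cyclic loess, median centring, removal of the lowest 25% by mean level, the mean of a gene's probe sets, the replicate number as a block, and leaving out each array. The number of members called stayed at 2 higher and 7 lower with median centring, with the lowest 25% removed, with the mean of probe sets, with the replicate block and without any 1 array, and was 2 and 6 after quantile normalization and cyclic loess. With the replicate block 12039 of all genes passed, as did 107 of the 121 related genes, and it changed no member's call. Over the arrays left out in turn, 11573 to 12024 genes and 102 to 106 related genes passed. Removing the lowest 25% left 3317 genes and 9455 probe sets called higher, against 6199 and 14848, since fewer were tested and low ones were mostly higher. The Hdac1 changes of -0.53 and -0.68 turned to 0.16 and 0.025 after quantile normalization, and the first to 0.13 after cyclic loess. With the mean of probe sets several listed genes changed sign. Among them, Suds3 had -0.39, Tbl1xr1 had -0.000295, and Mta3 went from -0.99, passing as lower, to 0.27, passing as higher. The cause was not tested. Changes in sign among the members' probe sets were thus limited, in the scalings run, to Hdac1. Signal over background was not used, so what it limits at low levels is not known here.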
